A study of Mus musculus with 6 samples.

Results

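The tryptophan to NAD pathway is described here through 10 genes that were chosen by symbol: Ido2, Tdo2, Afmid, Kmo, Kynu, Aadat, Haao, Acmsd, Qprt and Nadsyn1. All 10 were found among the 46095 genes of the count table, and 9 had enough counts to enter the comparison, the exception being Tdo2. The libraries labelled VHL-KO;SETD2-KO were compared with those labelled VHL-KO. Ido2, Afmid, Haao, Qprt and Nadsyn1 were lower in all 3 VHL-KO;SETD2-KO libraries than in any VHL-KO library, where 11.0% of tested genes were. The differences were between 2.13-fold and 4.12-fold in the fit over all libraries. Without VHL-KO replicate 4, which stood apart, they were between 1.48-fold and 3.72-fold, and Qprt moved from 3.60-fold to 1.53-fold. Of 10 proximal tubule markers, 9 also had a lower mean, with a median log2 difference of -1.27 against -1.09 for the members. Relative to these markers, Ido2 alone remained wholly below the VHL-KO libraries, where 0.390% of tested genes did. Kmo, Kynu and Acmsd then lay wholly above, where 58.7% did. Kmo, Aadat and Acmsd had group means close to each other and overlapping ranges. Kynu was higher on average, mostly through 1 library, without which its log2 difference dropped from 2.29 to 0.44. The genes were chosen with this comparison known, so their differences are given as a description. Counts of members past a threshold, given further on, describe the same contrast and are not a test of them.

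Most tryptophan that is not used for protein is broken down along the kynurenine pathway. A dioxygenase opens the indole ring, a formamidase releases kynurenine, and kynurenine is then either hydroxylated and cleaved towards quinolinate, the precursor of NAD, or transaminated to kynurenic acid. The liver and the kidney, in particular the proximal tubule, are known for making NAD from tryptophan by this route, besides salvaging it from nicotinamide.

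RNA was sequenced from primary renal tubular epithelial cells (PTECs) isolated from mice of 10 weeks of age, with 3 libraries under each label. Replicate numbers were 1, 2 and 4 for VHL-KO, and for VHL-KO;SETD2-KO they were 2, 3 and 4. In both groups Cre recombinase under the promoter of Cdh16, kidney-specific cadherin, was used to delete floxed Vhl, and in the VHL-KO;SETD2-KO group floxed Setd2 as well. By this design the deletion of Vhl was shared by all libraries, but no Vhl level is given here. No wild-type cells were analysed, and cells of the isolate in which Cre was not active keep both genes. Vhl encodes the part of an E3 ubiquitin ligase that recognises hypoxia-inducible factors, and Setd2 encodes the methyltransferase that trimethylates histone H3 at lysine 36.

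The libraries held between 11168552 and 17883466 counts, and the smallest signal taken as detectable, 3 counts, corresponded to between 0.168 and 0.269 CPM, counts scaled to a common library size. Setd2 itself was counted 1179, 799 and 132 times in the VHL-KO group (replicates 1, 2 and 4), against 1499, 1019 and 1429 times in the VHL-KO;SETD2-KO group (replicates 2, 3 and 4), so it was not lower under the label that names its deletion. These counts cover the whole gene and do not separate the deleted exons, and the group names below are those of the labels. VHL-KO replicate 4 stood apart, with Spearman correlations over genes of 0.717 to 0.765 with the other libraries, which correlated with each other at 0.937 to 0.986, and 11.3% of its counts came from mitochondrial genes against 25.9% to 36.4% elsewhere. VHL-KO;SETD2-KO replicate 3 held 11704 counts of Xist, of which the other libraries had at most 4. It held 1 count of the Y-linked genes, against 260 to 3283 in the other libraries. By these counts that library came from a female and the others from males, so sex was not balanced between the labels. The part of sex in the differences was not tested.

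The coding sequences of the pathway's genes differ in base composition. The 2 stretches shown are the middle 120 coding bases of the tested members with the highest and the lowest coding GC content, with G and C in capitals. The Qprt stretch covers coding bases 389 to 508 and is 64.2% G and C, and the Aadat stretch covers coding bases 589 to 708 and is 39.2% G and C.
Qprt: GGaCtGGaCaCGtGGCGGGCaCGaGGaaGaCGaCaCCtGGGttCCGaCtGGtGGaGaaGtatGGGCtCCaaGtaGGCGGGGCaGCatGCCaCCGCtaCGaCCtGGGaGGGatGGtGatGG
Aadat: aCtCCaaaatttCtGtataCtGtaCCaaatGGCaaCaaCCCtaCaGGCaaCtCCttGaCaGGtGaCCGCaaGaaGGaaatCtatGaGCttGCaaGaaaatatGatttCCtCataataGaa
Both were read from the GENCODE transcripts of build GRCm38, in which Qprt lies at chr7:127107114-127122226 on the minus strand and Aadat at chr8:60505932-60545677 on the plus strand. Over the whole transcript, GC content was 51.8% for Ido2, 54.6% for Afmid, 55.8% for Haao, 55.5% for Qprt and 52.9% for Nadsyn1. It was lower for the others, at 45% for Kmo, 41.9% for Kynu, 43.3% for Aadat, 43.7% for Acmsd and 39.6% for Tdo2.

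The ring-opening enzymes come first in the pathway. Ido2, an indoleamine 2,3-dioxygenase (chr8:24531892-24576333, minus strand), had 9.40, 9.81 and 12.8 CPM in VHL-KO replicates 1, 2 and 4 and 2.23, 2.14 and 3.39 CPM in VHL-KO;SETD2-KO replicates 2, 3 and 4. The groups did not overlap, and the lowest VHL-KO library was above the highest VHL-KO;SETD2-KO library. The means were 10.7 ± 1.87 CPM and 2.59 ± 0.695 CPM (SD, n = 3 each), a difference of -2.04 on the log2 scale (SE 0.43). Ido2 rested on few reads, between 38 and 155 counts per library. Tdo2, the tryptophan dioxygenase that is known as the hepatic enzyme (chr3:81957090-81976202, minus strand), had 0 counts in all 6 libraries, which allows a level of at most 0.168 to 0.269 CPM per library by counting error alone.

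Afmid, the formamidase that releases kynurenine (chr11:117825924-117839908, plus strand), had 93.2, 101 and 277 CPM in VHL-KO replicates 1, 2 and 4. In VHL-KO;SETD2-KO replicates 2, 3 and 4 it had 42.7, 51.2 and 46.9 CPM. All VHL-KO libraries lay above all VHL-KO;SETD2-KO libraries, with VHL-KO replicate 4 far above the other two. The log2 difference was -1.74 (SE 0.53) over all libraries and -1.05 (SE 0.14) without VHL-KO replicate 4.

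Kynurenine then meets 3 enzymes. Kmo, the mitochondrial hydroxylase that commits kynurenine to the NAD branch (chr1:175620381-175662116, plus strand), had 146, 127 and 57.05 CPM in the VHL-KO libraries in the same order and 70.2, 124 and 83.4 CPM in the VHL-KO;SETD2-KO libraries. The ranges overlapped, with the lowest and the highest value of all 6 libraries both in the VHL-KO group. The log2 difference was -0.25 (SE 0.48).

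Kynu, the hydrolase that cleaves hydroxykynurenine and kynurenine (chr2:43555329-43682715, plus strand), was low in 5 of 6 libraries. It had 3.82, 5.74 and 2.15 CPM in the VHL-KO libraries, and 4.15, 46.8 and 6.40 CPM in VHL-KO;SETD2-KO replicates 2, 3 and 4. Replicate 3 was 8.88-fold above the mean of the other VHL-KO;SETD2-KO libraries, and it is the library with Xist counts. The log2 difference of 2.29 (SE 0.93) dropped to 0.44 (SE 0.60) without it. Whether the sex or another trait of the animal behind that library accounts for the Kynu level was not tested.

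Aadat, an aminotransferase that turns kynurenine into kynurenic acid, showed the same library on top. Its levels were 185, 154 and 116 CPM in the VHL-KO libraries and 72.6, 220 and 96.7 CPM in the VHL-KO;SETD2-KO libraries. Replicate 3 stood 2.60-fold above the mean of its group's other libraries, and Kmo stood 1.62-fold above in the same library. The log2 difference of Aadat was -0.22 (SE 0.52) with that library and -0.83 (SE 0.50) without it.

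The last steps lead from 3-hydroxyanthranilate to NAD. Haao, the dioxygenase that makes the unstable precursor of quinolinate (chr17:83831156-83847963, minus strand), had 147, 130.5 and 458 CPM in VHL-KO replicates 1, 2 and 4. It had 62.5, 61.9 and 70.7 CPM in the VHL-KO;SETD2-KO libraries, which lay close together and below each VHL-KO library. The log2 difference was -1.91 (SE 0.57), or a 3.77-fold lower level. Without VHL-KO replicate 4 the level was 2.14-fold lower.

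Acmsd, the decarboxylase that draws this precursor away from quinolinate and so from NAD (chr1:127729413-127767978, plus strand), had 157, 77.2 and 21.2 CPM in VHL-KO replicates 1, 2 and 4 and 78.7, 76.7 and 106 CPM in the VHL-KO;SETD2-KO libraries. Its VHL-KO values spread over more than the whole VHL-KO;SETD2-KO range. The log2 difference was 0.04 (SE 0.66) over all libraries and -0.43 (SE 0.32) without VHL-KO replicate 4. It was 0.83 (SE 0.66) without VHL-KO replicate 1, so that its direction depended on which VHL-KO library was left out.

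Qprt, which converts quinolinate to nicotinate mononucleotide and is the entry of the route into NAD, had 49.6, 39.4 and 225 CPM in VHL-KO replicates 1, 2 and 4. Its VHL-KO;SETD2-KO libraries had 27.5, 25.7 and 34.1 CPM, below all VHL-KO libraries. The log2 difference of -1.85 (SE 0.70) shrank to -0.62 (SE 0.18) without VHL-KO replicate 4. Nadsyn1, the synthetase that amidates the last intermediate to NAD (chr7:143795584-143822849, minus strand), had 27.3, 29.1 and 65.8 CPM in the VHL-KO libraries and 18.7, 19.4 and 19.3 CPM in the VHL-KO;SETD2-KO libraries. The groups did not overlap, and the log2 difference was -1.09 (SE 0.45), or -0.57 (SE 0.13) without VHL-KO replicate 4.

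**Figure D1:**
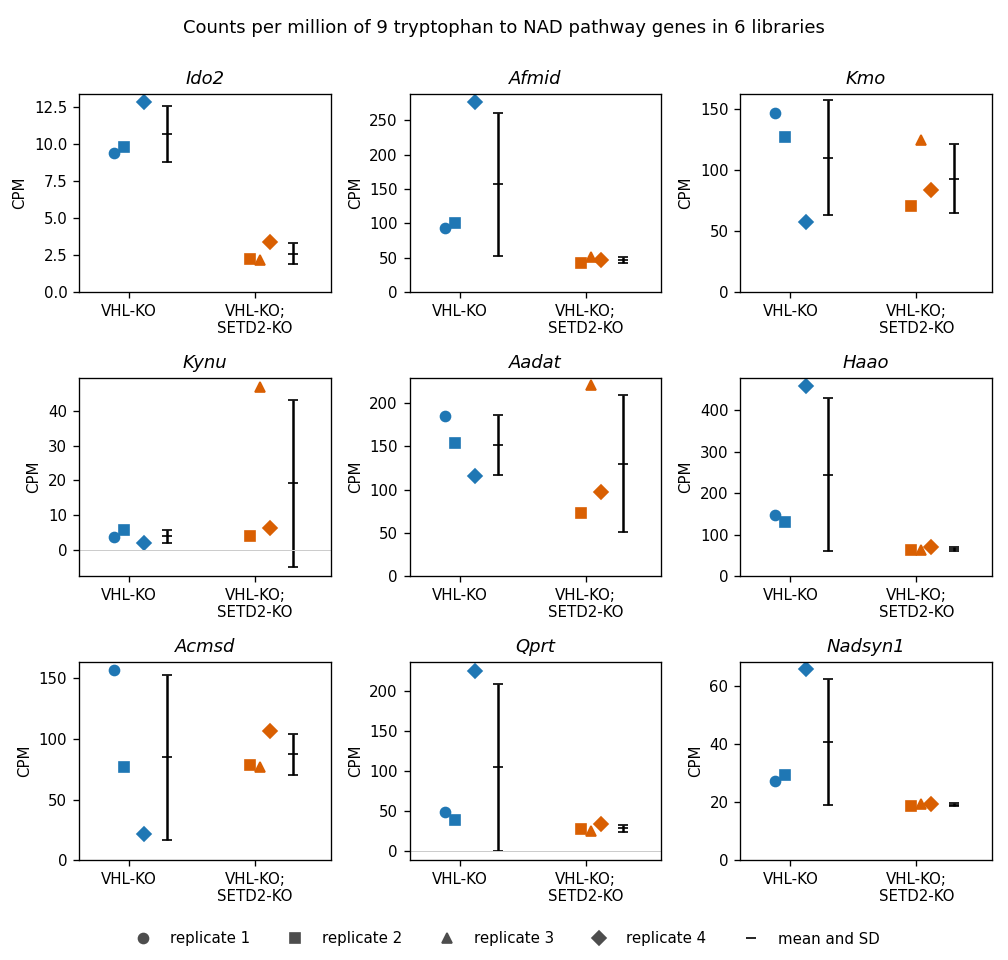
Each panel plots the CPM of 1 gene on a linear axis, with the 3 libraries labelled VHL-KO at the left in blue, the 3 labelled VHL-KO;SETD2-KO at the right in orange, the replicate number as the symbol, and the mean with its SD in black. Ido2, Afmid, Haao, Qprt and Nadsyn1 show no overlap of the groups, VHL-KO replicate 4 (diamond) is at the top of these 5 panels, and VHL-KO;SETD2-KO replicate 3 (triangle) is at the top of the Kynu and Aadat panels.

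Of the 9 members compared, 7 had a lower mean under the VHL-KO;SETD2-KO label, where 49.5% of the 14611 tested genes did, and 2 had a higher mean, where 50.5% did. The median log2 difference of the members was -1.09 against 0.01 over all tested genes. In 5 members all VHL-KO;SETD2-KO libraries lay below all VHL-KO libraries, a pattern held by 11.0% of tested genes, and no member lay wholly above, where 9.62% of tested genes did. In either direction, 20.6% of tested genes had no overlap. The same 5 members passed an unadjusted p of 0.05 with a fold change of at least 1.5 on the lower side, where 4.68% of tested genes passed, and Kynu passed on the higher side, where 2.65% did. After Benjamini-Hochberg adjustment over all tested genes no member passed in edgeR's quasi-likelihood test, as against 0.00684% of tested genes, whereas Haao passed in DESeq2, in which 0.349% of tested genes did. These counts come from the contrast by which the genes were chosen. They are printed as a description of it and not as a test of the members.

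The members split in VHL-KO replicate 4 by base composition. That library was above the mean of VHL-KO replicates 1 and 2 by 5.06-fold for Qprt, 3.305-fold for Haao, 2.85-fold for Afmid, 2.33-fold for Nadsyn1 and 1.335-fold for Ido2, the 5 members with the most GC-rich transcripts. It was at 0.683 of that mean for Aadat, 0.450 for Kynu, 0.418 for Kmo and 0.182 for Acmsd, the members at 45% or less. Across the 13811 tested genes with a transcript, the deviation of that library correlated with GC content at a Spearman coefficient of 0.75, and the log2 difference between the groups at -0.46, which became 0.13 when the library was left out. These coefficients are over genes, which share their libraries. The part of base composition in the members' differences was not tested, but the differences were computed with it taken out and with the library left out.

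With a smooth trend on transcript GC removed within each library, Ido2 differed by -1.79, Haao by -1.19, Afmid by -1.11, Qprt by -0.97 and Nadsyn1 by -0.62 on the log2 scale. Of these 5, Ido2 moved least from its value without the correction. It also has the lowest GC content of them, 51.8%, near the median of 50.35% over the tested genes with a transcript. Because the correction depends on GC content alone, this smaller shift is no sign of a firmer difference. Without that library all members but Kynu had a lower mean, and the median over the members was -0.57.

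**Figure D2:**
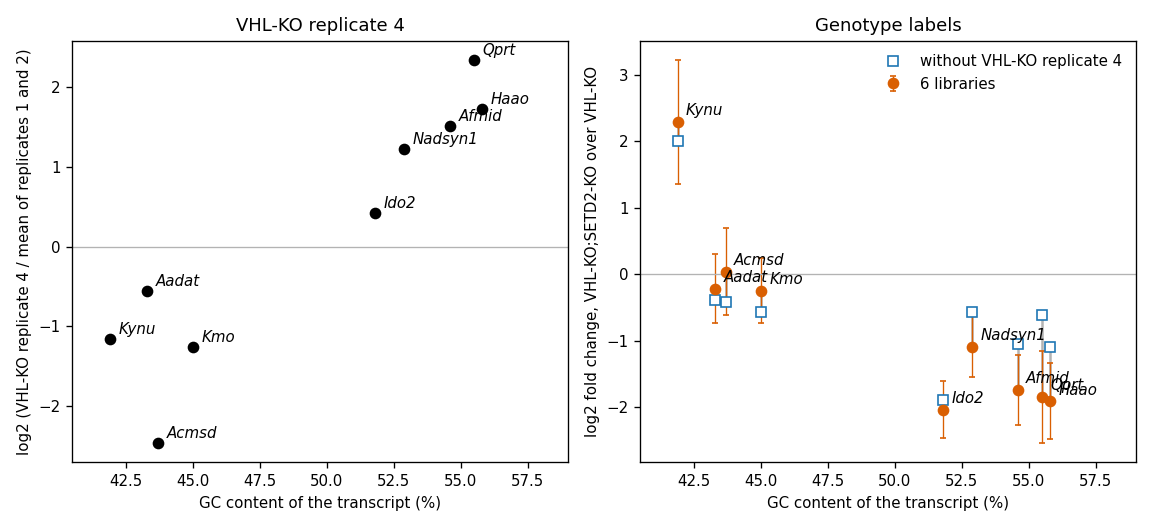
The left panel plots, for 9 genes against the GC content of the transcript in percent, the log2 ratio of VHL-KO replicate 4 to the mean of VHL-KO replicates 1 and 2, and the right panel plots the log2 fold change between the labels with all 6 libraries (filled, bars are standard errors) and without VHL-KO replicate 4 (open). The 5 genes with a GC content of 51.8% or more are above 0 at the left and move towards 0 at the right when the library is left out, with Ido2 moving least.

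The labelled cell type was checked against markers. The summed level of 10 proximal tubule markers, among them Slc34a1, the phosphate transporter, and Lrp2, megalin, was between 13890 and 26130 CPM in the VHL-KO libraries and between 6041 and 8452 CPM in the VHL-KO;SETD2-KO libraries. Of these markers 9 of 10 had a lower mean under the VHL-KO;SETD2-KO label, with a median log2 difference of -1.27. Only Slc34a1, Slc22a6, Aqp1 and Hnf4a lay wholly below, where 11.0% of tested genes did, and the other markers overlapped. In VHL-KO replicate 4 Slc34a1 alone gave 14210 CPM of the sum. Lrp2 was at 940 CPM in that library, below the VHL-KO;SETD2-KO libraries at 1167 to 1734 CPM. The 5 podocyte markers summed to between 1437 and 2089 CPM against between 1971 and 4836 CPM, and the 5 endothelial markers to between 974 and 1509 CPM against between 1169 and 3714 CPM. None of these 20 markers was at 0 in all libraries. In bulk samples a smaller share of proximal tubule cells and less RNA per cell cannot be told apart, and the part of cell composition in the members' differences was not tested.

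Relative to the mean log2 level of the 10 proximal tubule markers in the same library, the members looked different. Ido2 was then the only member whose VHL-KO;SETD2-KO libraries all lay below the VHL-KO libraries, at -7.35 ± 0.154 against -6.47 ± 0.190 on the log2 scale (SD, n = 3 each). Kmo, Kynu and Acmsd lay wholly above. On this scale 0.390% of all tested genes lay wholly below and 58.7% wholly above. Refitted on that scale, the log2 difference was -0.93 (SE 0.46) for Ido2, -0.76 for Haao, -0.69 for Qprt, -0.58 for Afmid and 0.07 for Nadsyn1, and it was 0.90 for Kmo, 0.96 for Aadat, 1.14 for Acmsd and 3.51 for Kynu. The median over the members was 0.07, and over all tested genes this scale moved the median to 1.14. No member passed the unadjusted threshold on the lower side, where 0.144% of tested genes did, and Kynu passed on the higher side, where 40.2% did.

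**Figure D3:**
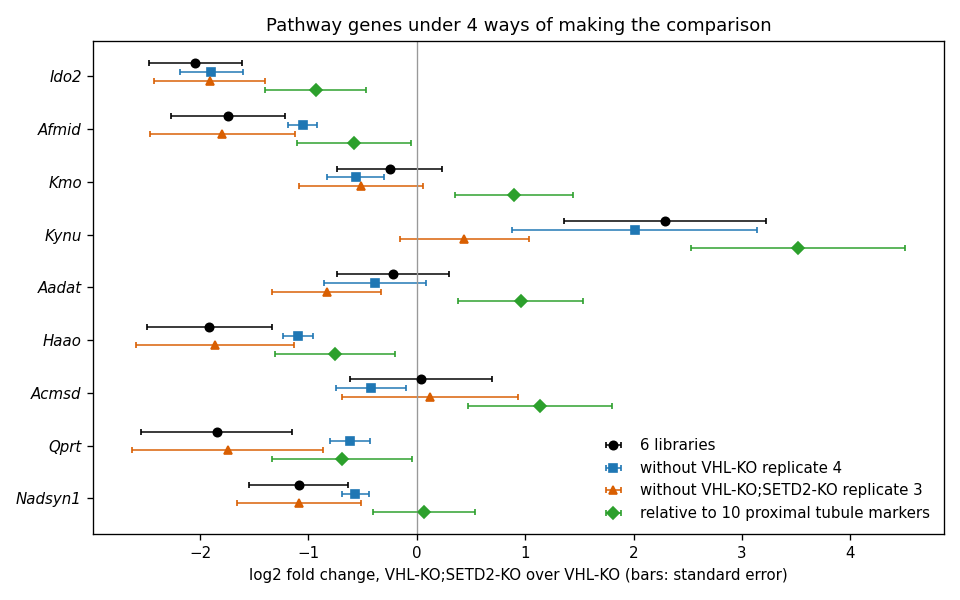
Log2 fold changes of 9 pathway genes (VHL-KO;SETD2-KO over VHL-KO, bars are standard errors) are plotted for all 6 libraries, without VHL-KO replicate 4, without VHL-KO;SETD2-KO replicate 3, and relative to 10 proximal tubule markers. Ido2 lies left of 0 in all 4, Kynu is at 0.44 without VHL-KO;SETD2-KO replicate 3, and Nadsyn1 moves from -1.09 to 0.07 relative to the markers.

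Levels of different genes were compared as CPM per kilobase of transcript. In the VHL-KO libraries the order of means was Haao at 178, Afmid at 99.2, Aadat at 94.8, Qprt at 51.1, Kmo at 40.8, Acmsd at 31.3, Nadsyn1 at 15.4, Ido2 at 4.35 and Kynu at 1.43 CPM per kilobase. Neighbours in this order overlapped down to Nadsyn1, while Nadsyn1, Ido2 and Kynu were each separated from the next. In the VHL-KO;SETD2-KO libraries the order was Aadat at 81.3, Haao at 47.1, Kmo at 34.4, Acmsd at 32.1, Afmid at 29.6, Qprt at 14.2, Nadsyn1 at 7.24, Kynu at 6.99 and Ido2 at 1.06 CPM per kilobase. There Afmid and Qprt, Qprt and Nadsyn1, and Kynu and Ido2 did not overlap, and the other neighbours did.

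Acmsd and Qprt stand on either side of the branch that decides between oxidation and NAD. The ratio of Acmsd to Qprt per kilobase was 2.38 and 1.48 in VHL-KO replicates 1 and 2 and 2.16, 2.25 and 2.35 in the VHL-KO;SETD2-KO libraries, but 0.0711 in VHL-KO replicate 4. The VHL-KO;SETD2-KO values lay between those of VHL-KO replicates 1 and 2. The ratio of Haao, which makes the shared precursor, to Acmsd per kilobase was 1.84, 3.33 and 42.45 in the VHL-KO libraries and 1.56, 1.59 and 1.31 in the VHL-KO;SETD2-KO libraries, without overlap. The lowest VHL-KO value stood close above the highest VHL-KO;SETD2-KO value, and the 42.45 belonged to VHL-KO replicate 4. The ratio of Kmo to Aadat, the choice of kynurenine between hydroxylation and transamination, was 0.470, 0.488 and 0.293 in the VHL-KO libraries and 0.573, 0.335 and 0.511 in the VHL-KO;SETD2-KO libraries, which overlap.

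Several members share ground with other genes. Afmid lies almost wholly within Gm20708, a protein-coding gene annotated on the same strand that overlaps it by 13981 bases and for which no counts were analysed here. Afmid also overlaps Tk1, thymidine kinase, by 169 bases on the opposite strand, and Tk1 was also lower, at 8.36 ± 3.36 CPM against 3.25 ± 0.860 CPM (SD, n = 3 each) without overlap. Kmo overlaps Fh1, fumarate hydratase, by 5255 bases on the opposite strand, and Fh1 had 141 ± 13.7 CPM against 107 ± 30.0 CPM. An antisense gene that overlaps Acmsd by 14363 bases, 2900009J06Rik, had at most 4 counts in a library. How strand was used in counting was not given in the sources used here, so reads from overlapping stretches may have been assigned to either gene. Ido1, the other indoleamine dioxygenase, lies 7802 bases from Ido2 and had 0.364, 1.30 and 0.374 CPM in the VHL-KO libraries and 2.34, 0.620 and 1.76 CPM in the VHL-KO;SETD2-KO libraries.

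RefSeq promoter windows, here the 250 bases before the start in GRCm38.p6, were given for 8 of the 10 members and not for Ido2 and Kynu. Among them the hypoxia response core ACGTG, searched on both strands, occurred in the Afmid window only, and in 16.6% of 32851 promoters. The HNF4 core CAAAGT occurred in the Kmo and Aadat windows and in 12.6% of promoters, and the HNF1 half-site GTTAAT in the Haao window and in 6.43% of promoters. The windows of 6 of these 8 genes overlap annotated exons, so the windows need not be the promoters in use.

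The genes whose profile over the 6 libraries came nearest to the members' median profile, by root mean square difference of centred log2 CPM among 12393 candidates, were Pbld1 at 0.0499, Sephs2 at 0.0575, H6pd at 0.0598, Neu2 at 0.0640 and Aco1 at 0.0752. Sephs2 makes selenophosphate, H6pd is the hexose-6-phosphate dehydrogenase of the endoplasmic reticulum, Neu2 is a sialidase and Aco1 is the cytosolic aconitase. In the members' median profile VHL-KO replicate 4 was 1.28 above the mean of the libraries on the log2 scale, and VHL-KO;SETD2-KO replicate 2 was 0.77 below it, so the likeness includes the library that stood apart.

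Around the members, 54 further genes of tryptophan and NAD metabolism were listed, of which 45 passed the filter and were tested in edgeR by quasi-likelihood. Of these, 16 had a higher and 29 a lower mean under the VHL-KO;SETD2-KO label, with a median log2 difference of -0.30. None passed the adjusted threshold, the lowest adjusted p being 0.625. The unadjusted p was under 0.05 with a fold change of at least 1.5 for 2 higher and 5 lower genes, 7 of 45, where 7.33% of all tested genes passed. DESeq2 called 1 of them after adjustment, Inmt (adjusted p = 0.0385). In 5 genes all VHL-KO;SETD2-KO libraries were above and in 10 genes all were below the VHL-KO libraries, where 9.62% and 11.0% of tested genes were.

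Among 17 other enzymes of tryptophan and kynurenine, 14 were tested, of which 3 had a higher and 11 a lower mean. Kyat1, a kynurenine aminotransferase, had 91.1, 94.9 and 227 CPM in the VHL-KO libraries and 27.4, 35.8 and 46.2 CPM in the VHL-KO;SETD2-KO libraries (log2 difference -1.92, SE 0.51). It was the single gene of these lists that passed the unadjusted threshold whichever library was left out. Gcdh, the glutaryl-CoA dehydrogenase of the oxidative branch, differed by -1.11 (SE 0.43), and Maoa, a monoamine oxidase, by 1.02 (SE 0.43). The Maoa difference was 0.20 with the GC trend removed. Inmt, which methylates indoleamines, had 681, 550 and 2338 CPM against 268, 11.4 and 264 CPM, with the 11.4 in VHL-KO;SETD2-KO replicate 3, the library with Xist counts. Its log2 difference was -2.72 (SE 1.09), and without VHL-KO replicate 4 it was -1.77 and did not pass. The most abundant of the rest were Ogdh, of the oxoglutarate dehydrogenase complex, at 801 ± 490 CPM against 421 ± 61.8 CPM, and Aldh2, an aldehyde dehydrogenase, at 834 ± 451 CPM against 465 ± 81.9 CPM. Without VHL-KO replicate 4 the log2 difference of both was -0.31.

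NAD salvage and phosphorylation counted 11 genes, 9 of them tested, with 3 higher and 6 lower means. Naprt, which starts NAD synthesis from nicotinic acid, had 27.5, 30.7 and 131 CPM against 12.3, 26.5 and 14.7 CPM (log2 difference -1.82, SE 0.69), and without VHL-KO replicate 4 it was at -0.71 and did not pass. Nampt, the rate-limiting enzyme of salvage from nicotinamide, had 147, 174 and 24.1 CPM against 120, 183 and 128 CPM, with overlapping groups (log2 difference 0.32, SE 0.67, and -0.16 without VHL-KO replicate 4). Nadk, the kinase that makes NADP, differed by -1.06 (SE 0.48) without overlap of the groups. Without VHL-KO replicate 4 the Nadk difference was -0.52, and relative to the proximal tubule markers it was 0.11.

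Of 13 NAD and nicotinamide consumers 11 were tested, with 5 higher and 6 lower means. Sirt3, the main mitochondrial deacetylase, had 67.9, 65.2 and 180.5 CPM against 34.5, 48.0 and 35.9 CPM (log2 difference -1.41, SE 0.51), and without VHL-KO replicate 4 its difference was -0.76. Cd38, an NAD glycohydrolase of the cell surface, had 27.6, 36.2 and 9.35 CPM against 98.03, 38.7 and 79.8 CPM (log2 difference 1.57, SE 0.60), highest in the 2 libraries in which the podocyte and endothelial markers were highest, and the part of those cells in it was not tested. Sirt2 and Sirt7 differed by -0.53 (SE 0.51) and -0.71 (SE 0.44), and without VHL-KO replicate 4 by 0.16 and -0.23, so that Sirt2 changed direction.

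The kynurenine sensing list had 5 of 7 genes tested, of which 4 had a higher and 1 a lower mean and none passed. Its most abundant genes were Arnt, the partner of the aryl hydrocarbon receptor, with a log2 difference of 0.42 (SE 0.47), and Tiparp, a target of that receptor, with -0.03 (SE 0.90). The Tiparp difference ranged from -0.58 without VHL-KO replicate 4 to 0.50 without VHL-KO replicate 2. The tryptophan uptake list had all 6 genes tested, with 1 higher and 5 lower means and none past the threshold. Slc6a19, the apical neutral amino acid transporter, differed by -0.85 (SE 0.47), and Tmem27, the protein that carries it to the membrane, by -0.11 (SE 0.58), or by 0.40 without VHL-KO replicate 1.

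**Figure D4:**
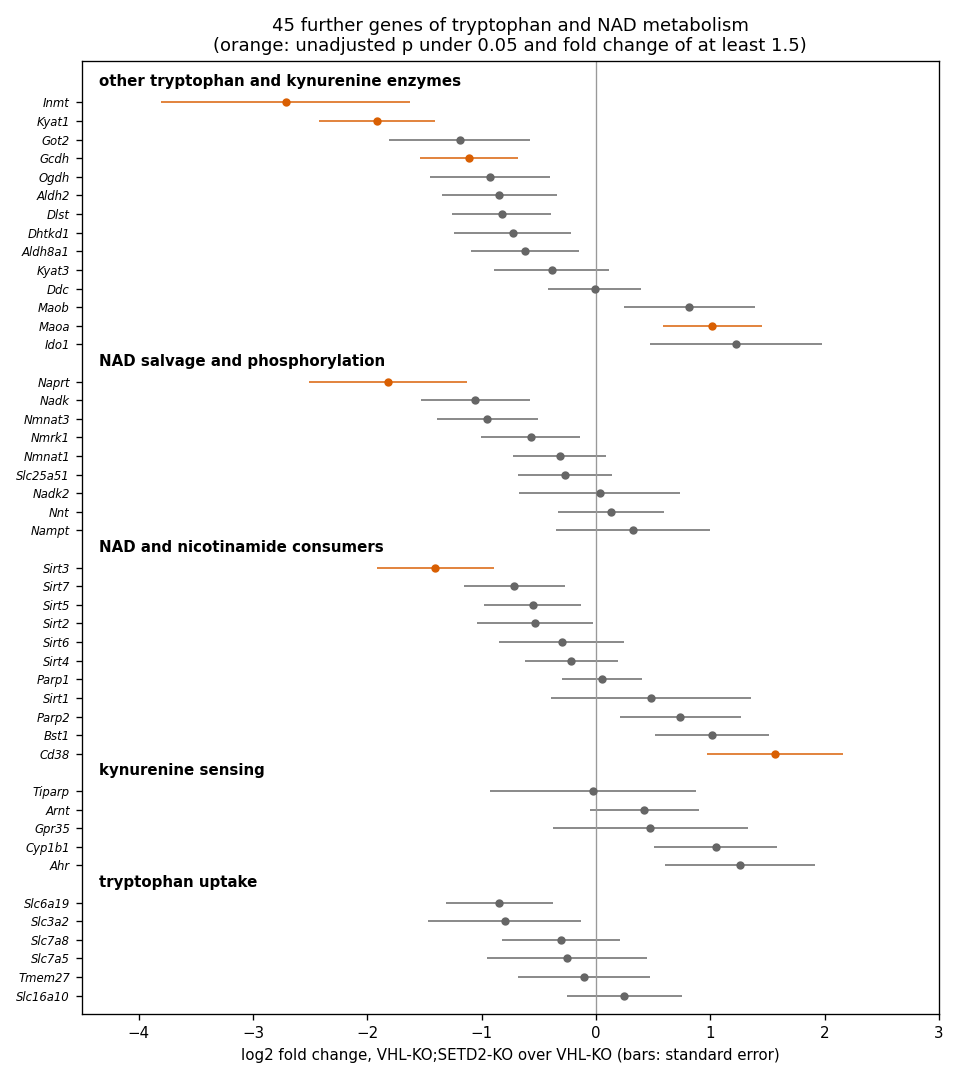
Log2 fold changes (VHL-KO;SETD2-KO over VHL-KO) with standard errors are plotted for 45 genes in 5 lists, with the 7 past an unadjusted p of 0.05 and a fold change of at least 1.5 in orange. Inmt, Kyat1, Gcdh, Naprt and Sirt3 lie to the left and Maoa and Cd38 to the right, and no gene passes after adjustment over all tested genes.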

How the data were processed

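Counts were analysed for 6 mouse PTEC libraries, 3 per label, with groups and replicate numbers taken from the sample labels and the age from the study's methods. The deposited table holds raw counts by gene symbol, which the authors made from directional, paired-end Illumina libraries. The submitters' processing notes name HISAT2 2.0.4 and GRCm38, and the counting tool, annotation and strand setting are not given in the sources used here. The number of columns of samples left unused was 0.

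Of 46095 genes, 14611 passed filterByExpr and were fitted by quasi-likelihood in edgeR 4.0.16 (R 4.3.3), after TMM scaling (factors 0.831 to 1.16) and with Benjamini-Hochberg adjustment over all fitted genes. A call needed p under 0.05 together with a fold change of 1.5 or more. A prior count of 2 was added for log2 CPM. The floor of 3 counts reflects counting error alone, because the reads carried no molecular identifiers. The p-values set the difference between the labels against the spread among libraries of the same label, which includes VHL-KO replicate 4.

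The members and lists were chosen with earlier results of these data known. All members are named, as are those of the 45 tested wider genes past the unadjusted threshold, the 2 most abundant others per list, and the 5 genes of nearest profile. Neighbouring genes, Setd2, Xist and the Y-linked genes were added after their values were seen. Transcripts, positions and GC content came from GENCODE (GRCm38), using the transcript with the longest coding sequence, and promoters from RefSeq. Tdo2 was not fitted. Alternatives were RLE factors, library totals, library sizes without mitochondrial genes, other filters, DESeq2 1.42.0, limma-voom 3.58.1, a replicate block, each library left out and a fold change of 2. A GC offset and scaling to proximal tubule markers were added after the data were seen. The scripts were tested on simulated data. Replicate numbers 2 and 4 occur under both labels, and nothing in the labels says that they pair animals. Marker lists for 11 cell types were summed, and the values of the 8 lists not given in the report stand in the closing section.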

Additional observations from a re-analysis of the deposited data

How the results depend on the processing

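Ido2, Afmid, Haao, Qprt and Kynu kept their sign in all 16 alternatives. Kmo, Aadat, Acmsd and Nadsyn1 did not, and relative to the proximal tubule markers Nadsyn1 turned to 0.065. On that scale 4 members had a lower mean, the median was 0.065, 0 members passed the unadjusted threshold on the lower side, where 0.144% of all tested genes did, and Kynu passed on the higher side, where 40.2% did. Of the wider genes 13 passed in either direction on that scale, where Gcdh turned to 0.050 and Ddc to 1.14. DESeq2 called 1 member (Haao) and 1 wider gene (Inmt) after adjustment, out of 51 genes in all, where edgeR called 0 of them and 1 gene in all. The count of members past the unadjusted threshold was 3 lower and 0 higher with limma-voom, where 3.33% and 2.9% of tested genes passed. With the GC offset Afmid, Haao, Ido2, Nadsyn1 and Qprt still passed lower and 0 members higher, where 6.52% and 7.65% of tested genes passed. With the replicate number as a block the count of members was 0 lower and 0 higher, and 0 of the wider genes passed. In that fit 0.37% of tested genes passed lower and 0.637% higher. Deviations from the group mean in same-numbered libraries correlated at 0.16 for replicate 2 and at -0.32 for replicate 4. With 3 libraries per label, 1 of which stood apart, these values cannot show whether same-numbered libraries were paired. The cause was not tested for any of these changes.

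Leaving out each library in turn gave 3 to 5 members past the unadjusted threshold on the lower side and 0 to 1 on the higher side, while the share of all tested genes past it ran from 1.37% to 7.14% lower and from 1.19% to 8.29% higher. It gave 6 to 8 members with a lower mean, a median of -1.29 to -0.57, and 1 to 9 wider genes past the unadjusted threshold. Afmid, Haao and Ido2 passed in each of these fits, which describes genes chosen with this contrast known and does not test them. Nadsyn1 did not pass without VHL-KO replicate 4 or any 1 of the VHL-KO;SETD2-KO libraries, Qprt did not without any 1 of the VHL-KO;SETD2-KO libraries, and Kynu did not without VHL-KO replicate 1 or 4 or VHL-KO;SETD2-KO replicate 3. Of the wider genes, 1 passed without VHL-KO;SETD2-KO replicate 2, 2 without replicate 4 of that group and 4 without VHL-KO replicate 1. With library totals alone the genes past the unadjusted threshold were 812 higher and 309 lower, against 387 and 684, and the median of all genes moved to 0.29. Of the 45 wider genes, 28 kept their sign in the up to 15 alternatives other than the scaling to proximal tubule markers, and 14 kept it in that one as well. With 3 libraries per label, 1 of which stood apart, and 38 to 155 counts for Ido2, small differences could not be resolved.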

Other observations

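The remaining cell type lists, given as summed CPM, were as follows. Thick limb markers summed to 728, 1305 and 3061 in VHL-KO replicates 1, 2 and 4 and to 726, 2179 and 923 in VHL-KO;SETD2-KO replicates 2, 3 and 4. Distal tubule markers summed to 544 to 1770 against 882 to 2259, and intercalated cell markers to 9.70 to 43.8 against 42.7 to 101.5. Principal cell markers of the collecting duct summed to 45.5 to 468 against 53.4 to 201. VHL-KO replicate 4 had the highest sum of thick limb and principal cell markers. Its thick limb sum was mostly Umod, at 2955 CPM, with Cldn16 at 6.83 CPM. Slc12a1, at 79.2 CPM, and Kcnj1, at 19.8 CPM, were lower there than in any other library. Macrophage markers summed to 91.2 to 307 against 64.9 to 208, fibroblast markers to 41.5 to 253 against 40.3 to 133, and T cell markers to 1.51 to 4.30 against 1.63 to 1.97. Hepatocyte markers summed to 98.5 to 345 against 39.7 to 91.7, and Tdo2, a gene of the hepatocyte, had 0 counts in all of these libraries. Most of the hepatocyte sum was Ttr, at 86.2 to 320 CPM against 29.2 to 86.1 CPM. Alb was at 8.60 to 9.34 CPM against 4.09 to 7.15 CPM, and Apoa1 was at most 0.394 CPM in any library.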
